A study of Mus musculus with 9 samples.

Results

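Common dendritic cell progenitors (CDPs) of the bone marrow that already carry a Zbtb46 reporter signal were compared with Pre-CD8 DCs, the precursors of the CD8 dendritic cell (DC) lineage now called cDC1. The comparison used 6 of the 9 microarrays of the study, 3 titled Zbtb46+ CDPs and 3 titled Pre-CD8 DCs. It covered all 19938 genes for which a probe set named exactly 1 gene, and where a gene had several such probe sets the one with the highest mean was taken. Every mouse was heterozygous for a Zbtb46-GFP reporter, so the green fluorescent protein allele is present in all groups and no population free of it was measured. Marrow came from pelvis, tibia and femur, red cells were lysed, and each population was sorted by flow cytometry into medium that held Flt3 ligand, the main DC growth factor. The remaining 3 arrays, of Zbtb46- CDPs from the same reporter line, entered the model only to estimate the spread and are quoted where a gene's earlier level is of interest. The sort gates, the age, sex and strain of the mice, and whether arrays stand for separate mice or pools are not given in the sources used here. The p-values therefore measure only the spread between these arrays, and how much of it is technical is not known.

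CDPs are proliferating marrow cells that give rise to plasmacytoid DCs and to the precursors of both classical DC types, cDC1 and cDC2. The cDC1 lineage depends on the transcription factors Irf8 and Batf3, takes up dead cells, senses viral RNA in its endosomes and presents captured antigen on MHC class I to CD8 T cells as well as on MHC class II. The last step within the marrow, from a progenitor that has switched on the reporter to a committed precursor, is the one examined here: which genes and functions are gained, and which are lost.

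All levels are log2 of the deposited array signal, and a difference is the Pre-CD8 DC mean minus the Zbtb46+ CDP mean on that scale, so that a rise of 1 is 2-fold. A gene was called at a Benjamini-Hochberg adjusted p under 0.05 in limma's moderated test over all 19938 genes. By that rule 949 genes were higher in Pre-CD8 DCs, 4.76% of those tested, and 370 were lower, 1.86%, together 1319 genes or 6.62%. The median difference was 0.60 among the genes called higher and -0.64 among those called lower, against -0.03 over all genes and a median SE of 0.107. A change of at least 2-fold was seen in 176 of the genes called higher and 67 of those called lower, and of at least 4-fold in 35 and 18. The 3 Pre-CD8 DC arrays lay above all 3 Zbtb46+ CDP arrays in 2508 genes (12.6%) and below them in 2052 (10.3%). All 949 and all 370 called genes were among these. After another quantile normalization of the arrays the split was 749 higher and 654 lower, so the share of rises depends on the scaling.

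Array signal does not reach zero for a silent gene, so a reference for dim signal was taken from 1231 olfactory, vomeronasal and taste receptor genes, sensory receptors that blood cells are not known to use. The 95th percentile of their signal was 6.83 and their median 5.15. That level of 6.83 is called the background level below, and only 3 of these receptor genes were called. A gene counted as gained where its Zbtb46+ CDP mean lay at or under it, all 3 Pre-CD8 DC arrays lay over it and the test was passed, and as lost in the reverse case. There were 82 gained and 47 lost genes. The other calls were changes between measurable levels or without a full crossing, 867 up and 323 down, including 24 rises and 46 falls with both means at or under the background level. A difference that begins or ends at this level may understate the change in transcript. In sorted bulk populations, fewer cells of a type and less RNA per cell cannot be told apart.

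**Figure D1:**
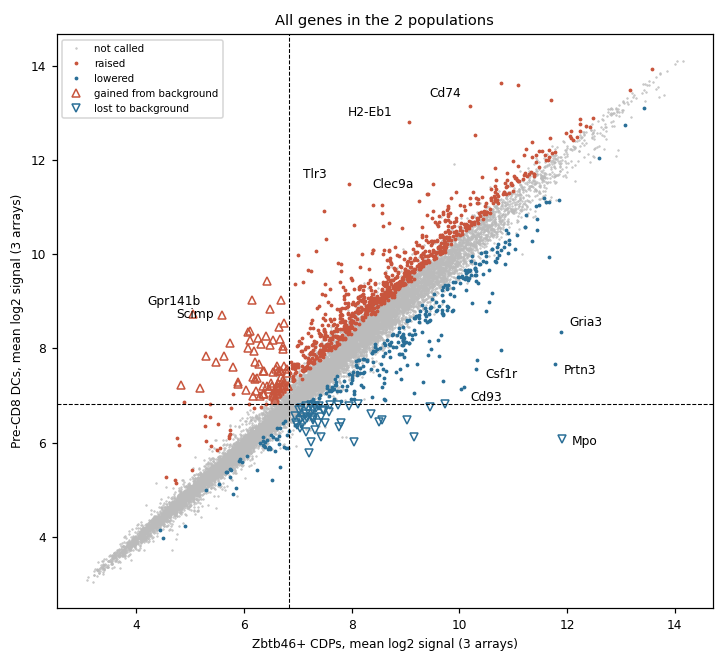
Mean log2 signal of each of the 19938 genes in Zbtb46+ CDPs (horizontal) and Pre-CD8 DCs (vertical), 3 arrays each, with the background level of 6.83 as dashed lines. Red and blue mark genes called higher (949) and lower (370), and open triangles mark the 82 gained and 47 lost genes, with Mpo the farthest below the diagonal and H2-Eb1 and Gpr141b far above it.

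Replicate 1 of the Zbtb46+ CDPs stood apart from its group. It differed by more than 1 from the mean of the other arrays of its group in 372 genes, against 53 and 60 for replicates 2 and 3 and 3 to 14 for the Pre-CD8 DC arrays. The median SD between arrays was 0.152 in the Zbtb46+ CDPs and 0.0815 in the Pre-CD8 DCs. Xist, the RNA of the inactive X chromosome, was 5.30 in that array and 12.20 and 12.18 in the other 2, and the Y-linked gene Eif2s3y was 6.51 against 3.71 and 3.78, whereas the Pre-CD8 DC arrays held 11.85 to 11.97 of Xist. Replicate 1 of the Zbtb46- CDPs had the same pattern, with 5.59 of Xist against 12.29 and 12.15 in its group and 6.92 of Eif2s3y against 3.66 and 3.63. By Xist and Eif2s3y, replicate 1 of both CDP groups thus differed in sex from the other arrays. Neither gene was called. Without both of these arrays 2496 genes were higher and 1570 lower. With the Zbtb46+ array alone left out, 1804 genes were higher and 868 lower. Of the 949 and 370 calls, 908 and 356 were made again, 55 were not and none changed sign. All 82 gained genes and 46 of the 47 lost genes were called without it. Among the genes named below its removal moved a called difference by over 1.5 times on the linear scale only in Cd74, a rise, and Elane, a fall. Removing any other of the 6 arrays left fewer calls: 570 higher and 290 lower without Zbtb46+ CDP replicate 2, 725 and 283 without replicate 3, and 466 and 196, 549 and 241, and 458 and 204 without Pre-CD8 DC replicates 1, 2 and 3. The calls of 270 genes, those of the lists and others chosen by rule, were followed through the 9 fits that leave out 1 array. Some called genes named below were not followed, among them Eif2ak2, Phf11c, Entpd1, Ffar4, Dusp16 and Rasgrp3. Of the 270 genes followed, 176 were called whichever of the 9 arrays was left out. Of the other 94, 13 had a difference of at least 1 in size. These were Elane, Hp, Axl and Irak3 among the falls and Plbd1, Cd9, P2ry10, Lyz2, Samd9l, Itgax, Rab43, Pfkfb3 and Cd68 among the rises, and each missed the threshold without at least 1 Pre-CD8 DC array. Of those with smaller differences, Klri1 was called in 0 of these 9 fits and Ahr, Emb, Gbp5, Ikzf2, Ncapd2 and Rpa1 in 1. Ccr2, Clec12a, Ctsc, Cxcl9, Icam2, Naip2, Sec61b and Siglecg were called in 2. Cyba, Gnl3, Ifngr2, Insig2, Irgm1, Tyk2 and Uqcrfs1 were called in 3.

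**Figure D2:**
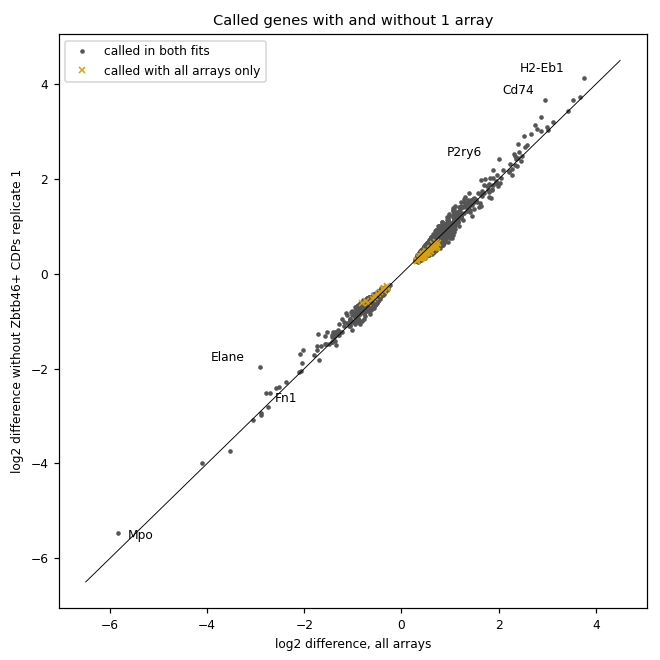
Log2 difference (Pre-CD8 DCs minus Zbtb46+ CDPs) of the 1319 called genes with all arrays (horizontal) and with Zbtb46+ CDP replicate 1 left out (vertical); the line marks equality. Gold crosses are the 55 genes no longer called, and Cd74 and Elane lie off the line.

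Marker genes of the cDC1 lineage were examined first, from a list chosen with earlier results of these data known. Its count is therefore no independent check of the labels. Of the 25 measured genes of the cDC1 lineage list, 18 were higher and 1 was lower, with a median difference of 1.17, and the counts were the same without Zbtb46+ CDP replicate 1. Clec9a, the lectin with which cDC1 detect exposed actin of dead cells, was 9.39, 9.37 and 9.48 in Zbtb46+ CDP replicates 1, 2 and 3 and 11.28, 11.25 and 11.35 in the Pre-CD8 DC replicates in the same order. Tlr3, the endosomal receptor for double-stranded RNA, was 8.21, 7.85 and 7.79 in the CDPs and 11.47, 11.51 and 11.49 in the Pre-CD8 DCs (difference 3.54, SE 0.137, adjusted p = 2.35e-06). Neither gene overlapped between the groups, and each Pre-CD8 DC array gave nearly the same level. Xcr1, the chemokine receptor by which cDC1 respond to Xcl1, crossed the background level, from 6.29, 6.52 and 6.41 to 8.18, 8.43 and 8.18. Cd8a, the surface marker that gave the lineage its name, had means of 6.51 and 6.73, under the background level in both populations, with an adjusted p of 0.12. Itgae, which encodes the CD103 chain of cDC1 in tissues, was likewise under it at 5.72 and 5.83. Of the surface markers named so far, Clec9a and Xcr1 thus separated the populations and Cd8a and Itgae did not pass the test.

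Among the other lineage genes the regulators moved by unequal amounts. Id2, which blocks E proteins and is required for cDC1, rose by 1.23 (SE 0.172, adjusted p = 0.00347) from 10.39, 10.37 and 10.50 to 11.76, 11.53 and 11.67. Batf3, which keeps Irf8 active in the lineage, rose by 1.17, from 10.04, 9.58 and 9.69 to 10.97, 10.97 and 10.87, with no overlap between the groups for either gene. Irf8 itself had 13.33, 12.80 and 12.77 in the CDPs, replicate 1 highest, and 12.98, 12.89 and 12.97 in the Pre-CD8 DCs, which fell within the range of the CDP arrays. Its difference of -0.025 had a 95% confidence interval from -0.36 to 0.31. Zbtb46, whose reporter defined the CDP sort, differed by 0.27 (interval -0.13 to 0.66). Nfil3, a basic leucine zipper factor needed early in cDC1 development, was the 1 member that fell, from 9.12, 8.80 and 8.79 to 7.59, 7.76 and 7.35 (difference -1.33, adjusted p = 0.00236).

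Other members of the list have roles away from transcription. Snx22, a sorting nexin, was gained from 6.48, 6.50 and 6.30 to 9.17, 9.74 and 9.41. Gcsam, a signalling adaptor first described in germinal centre B cells, rose from 7.01, 7.29 and 7.29 to 9.71, 9.55 and 9.73, and Septin3, a cytoskeletal GTPase, from 7.23, 6.80 and 6.80 to 9.49, 9.40 and 9.23. In all 3 genes the lowest Pre-CD8 DC array was well above the highest CDP array. Naaa, a lysosomal amidase, and Ppt1, a lysosomal thioesterase, rose by 2.23 and 1.98. Btla, an inhibitory receptor, rose by 1.56, and Clnk, an adaptor of immune receptors, by 1.25. Wdfy4, which cDC1 need to cross-present cell-associated antigen, was already high at 11.98 and rose by 0.61. The adhesion molecule gene Cadm1 rose by 0.51 to a mean of 7.04, just over the background level. Cd24a, a surface protein used to sort cDC1, and Ly75, the endocytic receptor DEC-205, differed by 0.21 and 0.55, with adjusted p of 0.264 and 0.119, and missed the threshold.

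**Figure D3:**
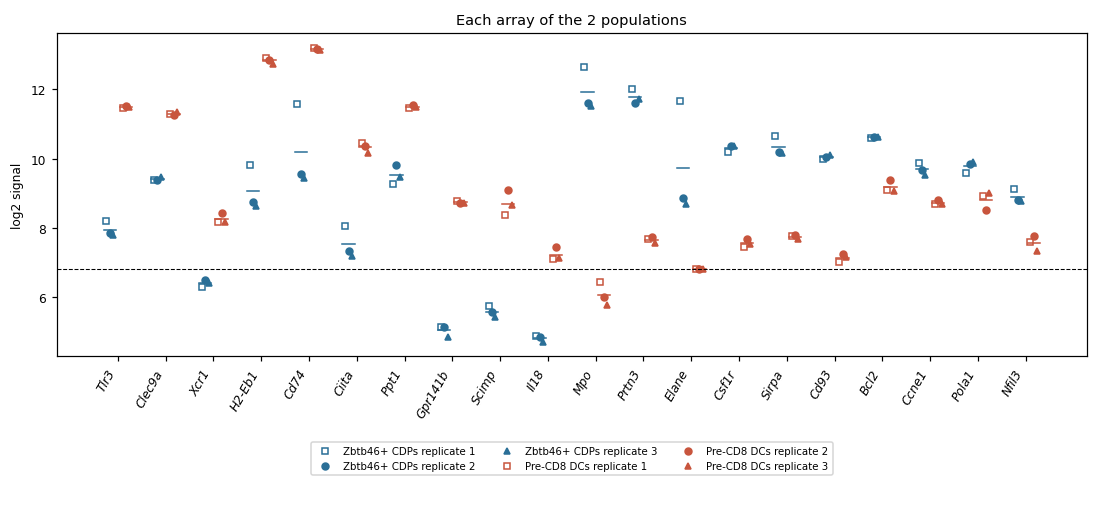
Log2 signal of each array for 20 genes, with Zbtb46+ CDPs in blue and Pre-CD8 DCs in red; squares, circles and triangles are replicates 1, 2 and 3, short lines are group means, and the dashed line is the background level. Tlr3, Clec9a and Gpr141b show tight arrays and wide gaps, while replicate 1 of the Zbtb46+ CDPs stands above its group in H2-Eb1, Cd74 and Elane.

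Genes of antigen presentation on MHC class II rose in part. Of the 13 measured genes of that list 6 were higher and none was lower, with a median difference of 1.13; without Zbtb46+ CDP replicate 1 the count was 10 and the median 1.56. H2-Eb1, a beta chain, rose from 9.82, 8.75 and 8.63 to 12.91, 12.85 and 12.71 (difference 3.76, SE 0.261, adjusted p = 5.61e-05). Cd74, the invariant chain that guards the peptide groove, went from 11.58, 9.55 and 9.44 to 13.18, 13.16 and 13.12. Its difference was 2.96 with all arrays and 3.66 without replicate 1, which was the highest CDP array in both genes. H2-Ab1 and H2-Aa, the chains of the other classical class II molecule, rose by 2.87 and 2.51 to means of 13.65 and 13.61. Ciita, the coactivator on which class II transcription depends, rose from 8.07, 7.33 and 7.20 to 10.43, 10.35 and 10.17, and H2-Ob, a chain of the peptide-editing inhibitor H2-O, from 9.01, 8.29 and 8.40 to 10.90, 10.97 and 10.77. All 6 genes had Pre-CD8 DC arrays above every CDP array.

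The other class II genes differed by less. H2-Oa, the partner chain of H2-Ob, differed by 1.13 and passed only without replicate 1 (1.56, adjusted p = 0.00336). H2-DMa, a chain of the peptide editor H2-M, was high in both populations at 12.31 and 12.60 (adjusted p = 0.23, and 0.0174 without replicate 1). The promoter-binding subunits Rfx5, Rfxap and Rfxank differed by 0.13, 0.50 and 0.20, and none passed with all arrays. Marchf1, the ubiquitin ligase that removes class II from the surface, differed by 0.015 (interval -0.17 to 0.20).

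Class II promoters are known to hold a Y box, an inverted CCAAT element, just upstream of the gene start, and 3 promoters of genes that rose are shown here because they carry it close to the start. The sequences are RefSeq's for build GRCm38.p6, the 250 bases before the annotated start, written 5′ to 3′ on the gene's strand, with the letters ATTGG or their complement CCAAT in capitals: H2-Aa at chr17:34287824-34288073, minus strand; H2-Eb1 at chr17:34305617-34305866, plus strand; H2-Ob at chr17:34238655-34238904, plus strand.
H2-Aa: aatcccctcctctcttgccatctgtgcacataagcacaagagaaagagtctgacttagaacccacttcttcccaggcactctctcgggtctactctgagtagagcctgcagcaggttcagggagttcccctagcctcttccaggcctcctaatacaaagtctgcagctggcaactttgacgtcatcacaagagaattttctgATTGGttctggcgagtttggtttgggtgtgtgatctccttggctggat
H2-Eb1: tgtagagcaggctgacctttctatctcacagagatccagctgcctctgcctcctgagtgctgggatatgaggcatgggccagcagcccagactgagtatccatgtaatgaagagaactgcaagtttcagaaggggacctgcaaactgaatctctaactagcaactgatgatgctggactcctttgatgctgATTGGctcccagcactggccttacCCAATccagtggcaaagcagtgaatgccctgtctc
H2-Ob: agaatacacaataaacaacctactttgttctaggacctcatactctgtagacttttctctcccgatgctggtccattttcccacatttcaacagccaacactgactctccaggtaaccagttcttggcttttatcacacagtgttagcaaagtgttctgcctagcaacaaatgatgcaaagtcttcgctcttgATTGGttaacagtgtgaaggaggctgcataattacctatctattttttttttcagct
The capitals begin 48 bases before the start in H2-Aa, 59 and 35 bases before it in H2-Eb1, and 57 bases before it in H2-Ob. The H2-Eb1 match at 35 reads CCAAT on the gene's strand and so is not inverted. The search counted both orientations. ATTGG was found on either strand in 7 of the 9 list members with a window (77.8%) and in 34.5% of all 27025 windows of that length. It was also in 24 of 40 windows of the DNA replication list (60%). In the list of nucleic acid sensors and interferon-stimulated genes 10 of 20 windows held it (50%). The 9 include H2-Eb2, H2-Oa, Rfx5 and Rfxank, which hold the letters and were not called. The match describes these letters and is not a measured binding site.

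MHC class I loading rose by smaller steps, with 6 of 15 measured members higher, none lower and a median of 0.35 (7 higher without replicate 1). Tap2, a chain of the peptide transporter, went from 9.91, 9.50 and 9.54 to 10.50, 10.41 and 10.33. The immunoproteasome subunits Psmb9, Psmb10 and Psmb8 rose by 0.71, 0.70 and 0.69, and the proteasome activators Psme2 and Psme1 by 0.54 and 0.48. B2m, the light chain of class I, was 12.46 and 12.48, and Nlrc5, the class I counterpart of Ciita, was 10.72 and 10.50 (adjusted p = 0.379). The called members are thus genes that cut and transport peptide. The heavy chain genes H2-K1 and H2-D1 had no probe set of their own and are not analysed here.

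Genes of antigen uptake and cross-presentation had 8 of 21 members higher and 1 lower (9 and 1 without replicate 1, and 4 higher without Zbtb46+ CDP replicate 2 or Pre-CD8 DC replicate 1). Cd36, a scavenger receptor for oxidised lipid and dying cells, was 4.70, 5.02 and 4.94 in the CDPs and 6.67, 6.99 and 6.96 in the Pre-CD8 DCs, and Havcr2, the phosphatidylserine receptor TIM-3, was gained from 5.07, 5.31 and 5.21 to 6.84, 7.40 and 7.25. The vesicle GTPases Rab7b, Rab43 and Rab32 and the effector Rab11fip1 rose by 1.21, 1.06, 0.84 and 0.96. Cyba, a membrane subunit of the NADPH oxidase, rose by 0.40, whereas its partner Cybb differed by -0.59 (adjusted p = 0.458). Axl, a receptor kinase that engulfs dying cells, fell by 1.03. The dead-cell receptors Mertk and Timd4 lay under the background level in both populations.

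The lysosomal list was mixed, with 7 of 36 members higher and 2 lower, and 12 and 3 without replicate 1. The count of rises was 4 without Zbtb46+ CDP replicate 2 or 3 or Pre-CD8 DC replicate 1 or 3. Besides Naaa and Ppt1, Plbd1, a phospholipase-like protein, rose from 11.95, 11.65 and 11.53 to 13.34, 13.22 and 13.31, and Ctss, the protease that trims the invariant chain, from 10.53, 11.19 and 11.26 to 11.94, 12.13 and 11.87. Cd68, a membrane glycoprotein of lysosomes, rose by 1.05. Ctsd, the aspartyl protease cathepsin D, was lost to background (8.31, 7.60 and 7.96 against 6.73, 6.77 and 6.80), and Ctsa, a carboxypeptidase, fell by 0.64. Most other hydrolases were not called, among them Ctsb (0.092), Hexa (-0.080) and Glb1 (-0.25).

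Receptors for microbial products were higher in several families. In the Toll-like receptor list 7 of 23 members were higher and 1 lower, with a median of 0.39, and 12 and 1 without replicate 1. Tlr13, the endosomal receptor for bacterial ribosomal RNA, was gained from 6.40, 5.90 and 6.28 to 8.03, 7.95 and 7.85. The surface receptors for bacterial lipoproteins Tlr1 and Tlr2 rose by 1.46 and 0.83, and Tlr4, the receptor for lipopolysaccharide, crossed the background level by 0.70, from a mean of 6.29 to 6.99. Its coreceptor Ly96 stayed under the background level at 4.83 and 4.76. Myd88, the shared adaptor, rose by 0.80. Irak3, a kinase-like brake on this pathway, fell from 8.55, 7.78 and 7.78 to 6.74, 7.08 and 6.95. Tlr7, which cDC1 are known to lack, was 5.07 and 4.83, and Tlr9, the receptor for CpG DNA, differed by 0.43 (adjusted p = 0.467, and 0.00363 without replicate 1).

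Cytosolic nucleic acid sensors and interferon-stimulated genes had 13 of 28 measured members higher and none lower, with a median of 0.55 (15 without replicate 1). Phf11a, a PHD finger protein, rose from 7.50, 7.49 and 7.49 to 10.97, 10.74 and 11.07, and its relatives Phf11d and Phf11c were gained, by 2.06 and 1.50. Phf11a, Phf11c and Phf11d are close relatives, so array signal may be shared among them. Dhx58 and Ifih1, sensors of viral RNA, rose by 1.23 and 1.08. Samd9l, a restriction factor, rose from 10.34, 10.82 and 10.83 to 11.83, 11.81 and 11.89, and Usp18, the brake on the interferon receptor, from 8.30, 7.96 and 8.17 to 9.15, 9.43 and 9.22. The antiviral effectors Mx1, Oas3 and Rsad2 rose by 0.80, 0.62 and 0.52, and Eif2ak2, the kinase PKR, crossed the background level by 0.89. Several classical interferon targets were not called, with Ifit1 at 5.21 and 5.07, Ifit3 at 6.58 and 6.59 and Oasl1 at 7.47 and 7.39. The list thus held called sensors, effectors and regulators beside uncalled Ifit genes, with Ifit1 and Ifit3 under the background level in both populations.

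Many interferon-stimulated genes carry an interferon-stimulated response element, and 3 promoters of list genes that rose are shown because they hold GAAA, any 2 bases and GAAA again, or their complement, here in capitals. They are the 250 bases before the RefSeq start in GRCm38.p6, 5′ to 3′ on the gene's strand: Phf11a at chr14:59297523-59297772, Oas3 at chr5:120777660-120777909 and Rsad2 at chr12:26456453-26456702, all on the minus strand.
Phf11a: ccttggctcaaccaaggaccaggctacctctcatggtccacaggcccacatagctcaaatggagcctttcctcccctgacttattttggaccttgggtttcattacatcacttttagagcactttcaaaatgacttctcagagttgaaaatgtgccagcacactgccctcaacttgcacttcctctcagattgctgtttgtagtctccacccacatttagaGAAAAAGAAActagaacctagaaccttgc
Oas3: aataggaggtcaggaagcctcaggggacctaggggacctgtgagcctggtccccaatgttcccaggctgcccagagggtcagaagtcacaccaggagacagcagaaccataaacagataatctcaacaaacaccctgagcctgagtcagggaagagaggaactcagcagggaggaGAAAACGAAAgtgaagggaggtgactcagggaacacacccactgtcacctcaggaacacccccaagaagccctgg
Rsad2: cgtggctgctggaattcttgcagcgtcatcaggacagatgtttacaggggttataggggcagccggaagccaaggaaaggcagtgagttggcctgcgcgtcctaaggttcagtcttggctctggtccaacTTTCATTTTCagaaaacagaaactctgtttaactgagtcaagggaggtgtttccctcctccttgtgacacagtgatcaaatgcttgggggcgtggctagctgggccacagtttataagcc
The element begins 29 bases before the start in Phf11a, 75 in Oas3 and 120 in Rsad2. It was found on either strand in 7 of the 20 list members with a window (35%) and in 3.04% of all 27025 windows. Of these 7 members Oas1a, Ifit1 and Ifit3 were not called, and the called genes Ifih1, Samd9l, Rnf213 and Phf11d had no match in this window.

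The factors upstream of these genes rose in part. Of 21 measured interferon regulatory factors, Stats, Janus kinases and their inhibitors, 5 were higher and none lower, and 9 without replicate 1. The count was 2 without Zbtb46+ CDP replicate 2 or Pre-CD8 DC replicate 1 or 3. Irf7, the amplifier of type I interferon, rose from 8.71, 8.71 and 8.69 to 10.70, 10.66 and 10.61 (difference 1.95, adjusted p = 1.65e-05). Stat2 and Irf9, which act downstream of the type I interferon receptor, rose by 0.81 and 0.38, and the kinase Tyk2 by 0.72. Irf1 rose by 0.39. Irf4, which favours cDC2, differed by 0.35 around the background level (adjusted p = 0.314). The inhibitors Socs1 and Socs3 differed by 0.11 and -0.10, and neither passed the test.

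Of 15 measured Schlafen genes, guanylate-binding proteins and immunity GTPases, which interferons induce in many cells, 4 were higher and 3 lower (3 and 2 without replicate 1). Slfn5, a nuclear regulator of interferon responses, rose from 7.24, 6.73 and 7.04 to 10.27, 9.61 and 10.09, and Slfn2 and Slfn8 rose by 1.09 and 0.79. Gbp3 and Gbp7, GTPases that attack pathogen vacuoles, were lost to background, falling by 1.09 and 0.81. The calls of Gbp5 (-0.31) and of the immunity GTPase Irgm1 (0.76) were not made without replicate 1 (adjusted p = 0.0512 and 0.052). Of the 9 fits that leave out 1 array, 1 called Gbp5 and 3 called Irgm1.

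The inflammasome and interleukin 1 list had 5 of 16 members higher and 2 lower, with the same counts without replicate 1. Il18, a cytokine that drives interferon-gamma from lymphocytes, was gained from 4.90, 4.85 and 4.73 to 7.10, 7.45 and 7.13, with no overlap (difference 2.40, SE 0.102, adjusted p = 4.31e-06). Naip5, Naip6 and Naip2, related receptors for flagellin or bacterial secretion proteins, rose by 0.52, 0.51 and 0.50, and signal may be shared between their probes. Nlrc4, the partner they activate, fell by 0.68 to 5.96, with both means under the background level, and Mefv, the pyrin sensor, fell by 0.68. Il1b and Il1a were under the background level in both populations.

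Among surface receptors, Gpr141b, an orphan receptor, was gained, from 5.15, 5.16 and 4.86 to 8.77, 8.71 and 8.73 (difference 3.68, SE 0.11, adjusted p = 5.89e-07). Of 28 measured receptors for lipids and nucleotides 10 were higher and 1 lower, and 13 and 1 without replicate 1. P2ry14, a receptor for UDP-sugars, was gained from 5.97, 6.15 and 6.13 to 8.56, 8.58 and 7.92, and Cysltr1, a leukotriene receptor, from 6.33, 6.81 and 6.84 to 8.43, 8.57 and 8.38. P2ry6, which binds UDP, rose by 2.00 and Gpr65, a proton sensor, by 1.43. The ATP-gated channels P2rx7 and P2rx4 rose by 0.96 and 0.90. S1pr3, a receptor for sphingosine 1-phosphate, fell from a mean of 9.33 to 7.28, and the other 3 measured receptors of that ligand, S1pr1, S1pr2 and S1pr4, were not called.

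Chemokine receptors changed in both directions, 4 of 18 up and 2 down. Cxcr3, which follows interferon-induced chemokines such as Cxcl9, rose from 8.30, 7.80 and 8.02 to 10.53, 10.81 and 10.56, and Ccr9, a gut-homing receptor, was gained from 5.76, 5.98 and 5.93 to 6.99, 7.36 and 7.53. Ccr2, used to leave the marrow, rose by 0.65 from an already high 11.54. Cxcr4, which retains cells in the marrow, fell by 0.54 from 12.60, and Cx3cr1, the fractalkine receptor, fell from 10.91, 10.81 and 10.81 to 9.76, 9.72 and 9.88. Ccr7, which brings mature DCs to lymph nodes, had means of 7.42 and 7.06, which missed the threshold at an adjusted p of 0.147.

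Among 24 lectin receptors 6 were higher and 3 lower, and 2 were higher without Zbtb46+ CDP replicate 3 or Pre-CD8 DC replicate 3. Clec4b1, a lectin of the DCAR family, was gained from 6.42, 5.84 and 6.20 to 9.04, 9.20 and 8.86, Clec4a2 rose by 0.84 and Clec12a, an inhibitory receptor for uric acid crystals, by 0.49. Klri1 and Klri2 were called with both means under the background level. The call of Klri1 was not made without replicate 1 (adjusted p = 0.0517) or without any other single array. Clec7a, the beta-glucan receptor dectin-1, was lost from 8.12, 8.11 and 8.11 to 6.80, 6.54 and 7.11, Clec10a, a galactose lectin, fell by 1.43, and Clec5a by 1.18. The list of Slam and inhibitory receptors had 9 of 29 members higher and 3 lower. Scimp, an adaptor that scaffolds signalling near MHC class II and Toll-like receptors, was gained from 5.74, 5.60 and 5.43 to 8.38, 9.08 and 8.65. Slamf8 and Slamf7 rose by 2.75 and 1.88, Pirb, a receptor for class I, by 0.89 and Fcrla, an Fc receptor-like protein, by 1.50. Sirpa, which receives the Cd47 signal and marks cDC2, fell from 10.65, 10.18 and 10.16 to 7.78, 7.80 and 7.68, and Cd33 and Lair1 fell by 1.29 and 0.76. Cd47 itself was 11.99 and 12.10.

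Growth factor and cytokine receptors had 5 of 30 members higher and 3 lower, and 10 and 3 without replicate 1; the rises numbered 3 without Zbtb46+ CDP replicate 2 or 3 or Pre-CD8 DC replicate 1 or 3. Csf1r, the receptor for macrophage colony-stimulating factor that CDPs carry, fell from 10.19, 10.36 and 10.37 to 7.46, 7.68 and 7.54 (difference -2.74, SE 0.0896, adjusted p = 8.07e-07), and Csf3r, the receptor for granulocyte colony-stimulating factor, fell from 8.85, 8.54 and 8.41 to 7.36, 7.23 and 7.18. Both genes remained over the background level in all Pre-CD8 DC arrays. Flt3, whose ligand drives DC growth, rose by 0.59, and Kit, the stem cell factor receptor, rose from 10.99, 10.61 and 10.44 to 11.56, 11.61 and 11.59. Ifngr1 and Ifngr2, the chains of the interferon-gamma receptor, rose by 1.45 and 0.42, Il13ra1 by 1.34, and Tgfbr1 fell by 0.74. The interferon receptor chain Ifnar2 was 11.62 and 11.72.

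Integrins and adhesion molecules rose in 9 of 33 cases, or in 5 without Zbtb46+ CDP replicate 3, and fell in 1. Itga8, an integrin chain, was gained from 6.22, 6.18 and 6.10 to 7.30, 7.49 and 7.40, Itgax, the CD11c chain by which DCs are sorted, rose from 9.99, 9.38 and 9.49 to 10.65, 10.61 and 10.82, and Itga4 rose by 0.73. The tetraspanins Cd9 and Cd82 rose by 1.35 and 0.87 and the adhesion molecules Jaml, Alcam and Icam2 by 1.20, 0.73 and 0.43. Pecam1 fell by 0.89. Of 17 Fc and complement genes, Itgax and Fcgr2b (0.86), the inhibitory receptor for IgG, rose and Cfp, properdin, fell by 0.42, against 4.76% and 1.86% of all genes. Cd226, an activating receptor also listed for lymphocytes, rose from 8.72, 8.69 and 8.69 to 10.02, 10.08 and 10.13, and the aminopeptidase gene Anpep, which encodes CD13, from 8.93, 8.15 and 8.09 to 11.09, 11.15 and 10.94.

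Of 27 measured genes of costimulation and maturation 5 were higher, against 4.76% of all genes, and none lower, with a median of 0.03 (8 higher and 2 lower without replicate 1). The rises numbered 2 without Zbtb46+ CDP replicate 2 or 3 or Pre-CD8 DC replicate 2 or 3. Cd86, a ligand of Cd28, rose from 8.02, 7.05 and 7.28 to 9.04, 9.24 and 9.21. Ccl6, a chemokine of myeloid cells, rose by 2.48, Cxcl9 crossed the background level by 0.87, and Ebi3 and Cd200 rose by 0.68 and 0.67. Cd40 (7.49 and 7.57), Cd80 (7.49 and 7.58) and Fscn1 (a difference of -0.0058), which rise when DCs mature, were not called, and Il12b, a subunit of interleukin 12, was under the background level in both populations.

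Of 50 transcription factors of DC and myeloid fate 4 were higher and 3 lower, against 4.76% and 1.86% of all genes, and 11 and 3 without replicate 1; the rises numbered 2 without Zbtb46+ CDP replicate 2 or Pre-CD8 DC replicate 1 or 3. Besides Id2 and Batf3, Bcl6, a repressor needed by cDC1, rose from 8.90, 8.50 and 8.54 to 9.75, 9.20 and 9.70, and Ahr, the aryl hydrocarbon receptor, rose by 0.33. Besides Nfil3, Zeb2, a repressor that opposes the cDC1 fate, fell from 8.50, 8.59 and 8.59 to 7.28, 7.23 and 7.04, and Vdr, the vitamin D receptor, from a mean of 8.37 to 6.97. Mycl, a Myc relative of cDC1, was 9.71, 8.97 and 9.05 in the CDPs, replicate 1 highest, and 10.09, 9.89 and 9.84 in the Pre-CD8 DCs, and passed only without that array (0.69, adjusted p = 0.0968; 0.93, 0.00836). Spi1, Tcf4, Cebpa and Klf4 differed by 0.28, -0.21, -0.17 and -0.19, none called.

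The gained genes outside these lists covered trafficking, signalling and metabolism. Rab30, a Golgi GTPase, was gained from 5.53, 5.84 and 5.84 to 7.94, 8.26 and 8.16, Rasgrp3, an activator of Ras, from 5.51, 5.48 and 5.88 to 7.81, 7.92 and 7.79, and Treml4, a receptor that binds late apoptotic cells, from 7.01, 6.52 and 6.57 to 8.95, 9.04 and 9.10. Entpd1, the surface nucleotidase CD39, was gained by 1.32, Ffar4, a receptor for long-chain fatty acids, by 1.63, and the phosphatase gene Dusp16 by 1.79. Of the 82 gained genes, 58 also had a Zbtb46- CDP mean at or under the background level. The other 24 were over it in the Zbtb46- CDPs. H2bc4, a core histone gene, rose from 7.91, 6.69 and 7.12 to 9.55, 9.79 and 9.57 and had been 9.80, 9.37 and 9.83 in the Zbtb46- CDPs, so its lowest mean was that of the reporter-positive progenitors. The comparisons of the Zbtb46+ CDPs with the other populations share those 3 arrays.

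On the side of losses, the neutrophil primary granule genes fell in large part. Of 18 measured genes of granules and granule-stage progenitors 9 were lower and none higher, with a median of -1.06 (10 lower and a median of -0.85 without replicate 1, and 5 lower without Pre-CD8 DC replicate 3). Mpo, the peroxidase of neutrophil granules, fell from 12.62, 11.59 and 11.52 to 6.43, 6.02 and 5.79 (difference -5.83, SE 0.275, adjusted p = 7.18e-06). The serine proteases Prtn3 and Ctsg fell from means of 11.77 and 9.16 to 7.66 and 6.11. Elane, neutrophil elastase, had 11.65, 8.87 and 8.68 in the CDPs, where replicate 1 was far above the others, and 6.81, 6.81 and 6.83 in the Pre-CD8 DCs. Its fall was -2.92 with all arrays and -1.96 without that array (adjusted p = 0.029 and 9.63e-06). Mpo, Ctsg and Elane had means under the background level in Pre-CD8 DCs, and Prtn3 remained over it. Hp, haptoglobin, Cst7, a cystatin, and the elastase inhibitor gene Serpinb1a fell by 1.72, 1.38 and 0.94. Cebpe and Gfi1, transcription factors of the granulocyte lineage, differed by -0.36 and -0.060 and were not called.

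Signal for genes of mature neutrophils was high in 1 array. In the list of 19 genes 1 was higher (Anxa1, 1.07, an annexin that other cells make) and 2 were lower (Csf3r and Mmp8, -0.80), with a median of -0.31 that became 0.02 without replicate 1. Over all genes 4.76% were higher and 1.86% lower. The summed linear signal of the list ran from 3186 to 21382 in the Zbtb46+ CDPs, replicate 1 highest, and from 4333 to 5138 in the Pre-CD8 DCs. The part of that array's neutrophil signal in the falls of the primary granule genes was not tested; 10 granule genes were lower without it.

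Monocyte and macrophage genes went both ways, 4 of 22 higher and 5 lower (5 and 6 without replicate 1, and 1 higher without Zbtb46+ CDP replicate 2 or any Pre-CD8 DC array). F13a1, coagulation factor XIII, fell from 9.90, 10.17 and 10.18 to 7.21, 6.97 and 7.38, and Fn1, fibronectin, from 11.33, 10.54 and 10.43 to 7.89, 8.26 and 7.78, beside Csf1r. Emb, embigin, fell by 0.64, and Cd14, the lipopolysaccharide coreceptor, by 0.46 with both means under the background level. The lysozyme genes Lyz2 and Lyz1, close copies whose signal may be shared, rose by 1.22 and 1.20, beside Cd68 and Ccr2. Genes of the cDC2 lineage had 1 of 19 higher and 4 lower (3 and 6 without replicate 1, and none higher without Zbtb46+ CDP replicate 3, Pre-CD8 DC replicate 2 or 3 or any Zbtb46- CDP array). The falls were Sirpa, Clec10a, Zeb2 and Cx3cr1 and the rise Clec12a, all given above, while Klf4 and Itgam, which cDC2 use, were 9.91 and 9.72 and 9.34 and 9.12. Of 18 plasmacytoid DC genes 1 was higher and 2 lower (3 and 3 without Zbtb46+ CDP replicate 1, and 4 lower without Zbtb46- CDP replicate 1): Ccr9 rose, and Lair1 and Smim5 fell (-0.60). Beside the cDC2 and plasmacytoid DC counts, 4.76% of all genes were higher and 1.86% lower. Siglech, a plasmacytoid DC lectin, differed by -0.53 and Tcf4, their master factor, by -0.21, neither called.

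Stem and progenitor genes fell more often than they rose, 9 of 29 lower and 3 higher with a median of -0.37 (11 and 3 without replicate 1). Without Zbtb46+ CDP replicate 2 or 3 or Pre-CD8 DC replicate 1 or 2, 1 was higher. Cd93, a surface lectin of early progenitors, fell from 9.98, 10.05 and 10.09 to 7.03, 7.24 and 7.15, and Igfbp4, which binds insulin-like growth factors, was lost, from 9.83, 9.09 and 9.44 to 6.54, 6.89 and 6.84. Adgrg1, the adhesion receptor GPR56 of stem cells, was lost from 8.80, 8.14 and 8.14 to 6.53, 6.49 and 6.82. Cd34 fell by 1.56, Myb, a factor that sustains progenitors, by 1.08 and Cdk6, the kinase that partners cyclin D, by 1.27. Kit, Myc and Lmo2 were the members that rose. Myc, which drives growth, went from 10.36, 9.72 and 9.65 to 10.76, 10.62 and 10.68, and Lmo2, a bridging factor of early haematopoiesis, rose by 0.46. The stem cell factors Gata2 and Meis1 differed by -0.007 and 0.10 and were not called.

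Of the other large falls, those of Gria3, Upk1b and Lbp belonged to no list. Gria3, a glutamate receptor subunit, went from 11.45, 12.27 and 11.92 to 8.25, 8.35 and 8.44 (difference -3.53, SE 0.19, adjusted p = 1.38e-05). Upk1b, a tetraspanin of the bladder lining, was lost from 9.29, 8.90 and 8.87 to 6.22, 6.61 and 6.64, and Lbp, which carries lipopolysaccharide, from 8.88, 7.63 and 7.60 to 6.07, 6.11 and 5.86. Capg, which caps actin filaments, fell from 9.24, 9.11 and 9.14 to 6.96, 7.04 and 7.14, and the annexin gene Anxa3 was lost, falling by 2.07. Capg and Anxa3 belong to the cytoskeletal list, and Cd69 to that of T, NK and innate lymphoid genes. Cd69, an activation marker that holds cells in tissue, was lost from 7.41, 7.10 and 7.13 to 5.83, 5.86 and 5.65. Of the 47 lost genes 46 had a mean over the background level in the Zbtb46- CDPs too.

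**Figure D4:**
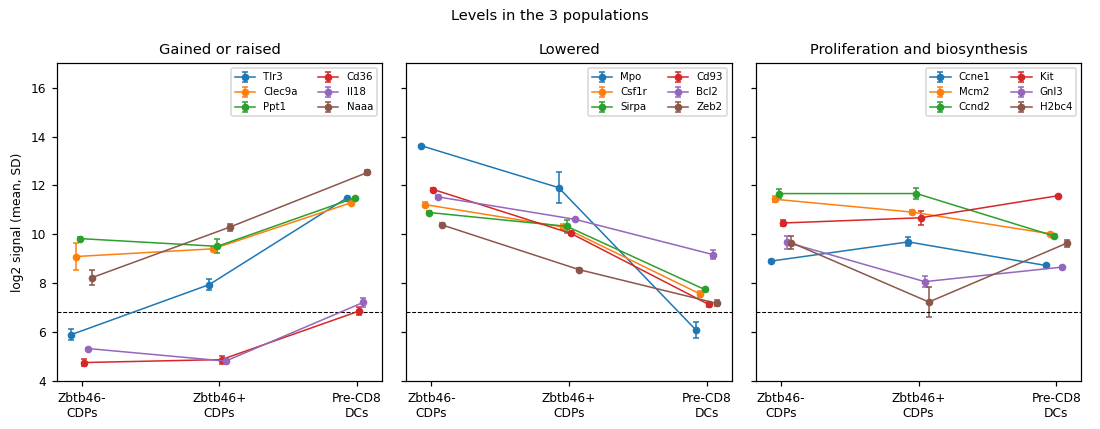
Mean log2 signal in Pre-CD8 DCs and in both CDP populations (bars are SD, 3 arrays each; dashed line, background level) for genes gained or raised, genes lowered, and genes of proliferation and biosynthesis. Both steps share the Zbtb46+ CDP arrays; Tlr3 rises and Csf1r falls along the whole series, while H2bc4 and Gnl3 are lowest in the Zbtb46+ CDPs.

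Genes of DNA replication fell broadly by modest amounts. Of 50 measured members 28 were lower and none higher, with a median of -0.49 beside -0.03 over all genes. Without Zbtb46+ CDP replicate 1, 37 were lower, and after quantile normalization 35 were. Ccne1, the cyclin that starts S phase, fell from 9.89, 9.68 and 9.52 to 8.70, 8.80 and 8.70, and its relative Ccne2 by 0.86. Pola1, the catalytic subunit of the primase polymerase, fell from a mean of 9.77 to 8.81, and Pole, the leading strand polymerase, from 10.79, 10.47 and 10.42 to 9.69, 9.55 and 9.74. The 6 subunits of the replicative helicase, Mcm2 to Mcm7, were all called, with falls of 0.88, 0.74, 0.68, 0.70, 0.77 and 0.66. Mcm2 had 11.02, 10.87 and 10.85 in the CDPs and 10.05, 10.05 and 9.98 in the Pre-CD8 DCs, and its 2 groups did not overlap. Lig1, which seals Okazaki fragments, and the maintenance methylation genes Uhrf1 and Dnmt1 fell by 0.80, 0.70 and 0.67. Orc1, an origin-binding subunit, was lost to background. Pcna, the polymerase clamp, was 12.73 and 12.45 and passed only without replicate 1 (adjusted p = 0.25 and 0.0103), and Gins4 differed by -0.0035. Every member but Orc1 remained over the background level in Pre-CD8 DCs.

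Replication genes are known targets of E2F factors, and 3 helicase promoters are shown because they hold an E2F sequence. The letters searched were TTTCCCGC and TTTGGCGC on both strands, and they or their complements are in capitals in the 250 bases before the RefSeq start in GRCm38.p6, 5′ to 3′ on the gene's strand: Mcm5 at chr8:75109259-75109508, plus strand; Mcm6 at chr1:128359706-128359955, minus strand; Mcm7 at chr5:138171884-138172133, minus strand.
Mcm5: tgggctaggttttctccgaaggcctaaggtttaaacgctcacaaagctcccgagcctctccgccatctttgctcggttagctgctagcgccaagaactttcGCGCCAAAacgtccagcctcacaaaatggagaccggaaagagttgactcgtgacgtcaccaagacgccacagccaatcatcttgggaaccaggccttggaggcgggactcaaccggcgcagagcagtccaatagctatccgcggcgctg
Mcm6: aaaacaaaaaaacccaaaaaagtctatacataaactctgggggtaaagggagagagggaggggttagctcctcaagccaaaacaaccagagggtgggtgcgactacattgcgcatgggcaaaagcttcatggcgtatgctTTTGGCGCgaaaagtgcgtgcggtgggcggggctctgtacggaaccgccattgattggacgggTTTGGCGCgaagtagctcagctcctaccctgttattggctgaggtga
Mcm7: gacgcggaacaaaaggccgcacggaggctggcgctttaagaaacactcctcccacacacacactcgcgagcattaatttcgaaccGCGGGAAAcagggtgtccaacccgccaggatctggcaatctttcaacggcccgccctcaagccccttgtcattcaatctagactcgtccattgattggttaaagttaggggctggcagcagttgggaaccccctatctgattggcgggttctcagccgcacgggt
The letters begin 149 bases before the start in Mcm5, 110 and 47 bases in Mcm6 and 165 bases in Mcm7. They were found in 6 of the 40 list members with a window (15%) and in 1.35% of all 27025 windows. Among the 15614 windows of genes compared here the share was 1.93%. Of the 6 members Gins3 was not called. Mcm2 and Mcm3, which fell as well, do not hold these letters in their windows.

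The G1 machinery fell in part, with 7 of 23 measured members lower and none higher (8 and 2 without replicate 1). Ccnd2, a D-type cyclin, fell from 11.93, 11.53 and 11.55 to 9.93, 10.02 and 9.86, and Cdk6 and Cdk2 fell by 1.27 and 0.67. E2f1, an activator of replication genes, fell by 0.72, and the repressors E2f7 and E2f8 by 0.87 and 0.65. Ccnd1 and the inhibitor gene Cdkn1b, which encodes p27, differed by 0.37 and 0.14, not called with all arrays. Of 42 mitosis genes 1, the condensin subunit gene Ncapd2 (-0.34), was lower, near the share of 1.86% over all genes, and none was higher. The count of falls was 10 without replicate 1 and 0 without any one of the other 8 arrays. Mki67, the proliferation marker, was 12.64, 12.71 and 12.60 in the CDPs and 12.47, 12.65 and 12.50 in the Pre-CD8 DCs, with overlap between the groups, and Ccna2 and Cdk1 differed by -0.14 (interval -0.29 to 0.0067) and -0.12 (interval -0.35 to 0.11).

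Ribosome biogenesis had 6 of 30 members higher and none lower, with a median of 0.31 (13 higher without replicate 1, 3 after quantile normalization, and 3 without Zbtb46+ CDP replicate 2 or Pre-CD8 DC replicate 1 or 3). Pno1, a small subunit assembly factor, rose from 7.31, 7.41 and 7.72 to 8.20, 8.37 and 8.18, and Rrs1, Polr1c, Pes1 and the methyltransferase gene Fbl rose by 0.57, 0.56, 0.37 and 0.37. Gnl3, nucleostemin, rose by 0.60 and was not called without replicate 1 (adjusted p = 0.0517). It was called in 3 of the 9 fits that leave out 1 array. Chaperones and translocon genes of the endoplasmic reticulum rose in 4 of 20 cases: Sdf2l1 (0.57), Hspa5 (0.50), Hyou1 (0.50) and Sec61b (0.40). After quantile normalization 1 member was called. None was without Zbtb46+ CDP replicate 2 or Pre-CD8 DC replicate 1 or 3, and 8 were without Zbtb46+ CDP replicate 1. Of 27 respiratory chain and ATP synthase genes 4 rose, Uqcrfs1 (0.47), Sdhb (0.47), Sdhd (0.43) and Ndufs3 (0.42). After quantile normalization none was higher and 1 was lower, and none was higher without Pre-CD8 DC replicate 1 or 2, so these calls depend on the scaling and on single arrays.

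Lipid and nutrient genes changed in small numbers. Of 26 genes of cholesterol and fatty acid metabolism 5 were higher and 2 lower, and 12 and 2 without replicate 1, with 2 higher without Pre-CD8 DC replicate 3. Idi1, Sqle, Lss and Fdft1, enzymes between isoprene and sterol, rose by 0.86, 0.59, 0.56 and 0.44, and Insig2, which restrains that pathway, by 0.38. Fads2, a fatty acid desaturase, fell by 0.67, and Abca1, the cholesterol exporter, by 0.39 from a value of 6.95 that was the same in all 3 CDP arrays. In glycolysis Pfkfb3, which raises the flux, rose from 8.15, 7.29 and 7.89 to 8.88, 8.54 and 9.09 and Hk3, a myeloid hexokinase, fell by 0.72, and no other of 19 genes was called. Over all genes 4.76% were higher and 1.86% lower. Of 24 solute carriers 4 were higher and 1 lower. Slc46a3, a lysosomal transporter, rose from 10.56, 9.58 and 9.66 to 11.32, 11.37 and 11.27, and the amino acid transporter genes Slc7a8, Slc7a7 and Slc3a2 rose by 1.23, 0.65 and 0.47. The nucleoside transporter gene Slc29a1 fell by 0.53.

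Survival genes moved in both directions, with 5 of 23 Bcl2 family and caspase genes higher and 2 lower (7 and 3 without replicate 1). Bcl2, which blocks apoptosis, fell from 10.60, 10.63 and 10.63 to 9.10, 9.38 and 9.06 with no overlap. Mcl1, another blocker, rose by 0.41, the inhibitor of apoptosis genes Birc3 and Birc2 by 0.81 and 0.52, Bmf, a promoter of death, by 0.57 and Casp6 by 1.23. Mlkl, the effector of necroptosis, fell by 0.89. Cytoskeletal genes had 7 of 34 members higher and 3 lower. Marcks, which binds actin at the membrane, rose by 1.21 while its relative Marcksl1 fell by 1.42. Capg and Anxa3, given above, were the other falls. Evl and Tubb6 rose by 0.93 and 0.90, and the annexins Anxa1 and Anxa5 by 1.07 and 0.57.

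Immediate early genes, which respond within minutes to handling as well as to signals, had 2 of 22 members higher and none lower, against 4.76% and 1.86% of all genes. Ier5 rose from 8.37, 7.81 and 7.97 to 9.22, 9.41 and 9.16 and Nr4a1, an orphan nuclear receptor, by 0.68. Without replicate 1, 8 were higher and the median went from 0.10 to 0.50. Their summed linear signal ran from 7852 to 17643 in the Zbtb46+ CDPs, replicate 1 highest, and from 12960 to 13796 in the Pre-CD8 DCs. The part of handling in these values was not tested.

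None of 14 B cell and early lymphoid genes and none of 14 erythroid, megakaryocyte, mast cell and basophil genes was called by limma with all arrays, against 6.62% of all genes. Without replicate 1, 1 of the former was lower, and of the latter 1 was higher and 2 were lower. The summed linear signal of the B cell list was 1122 to 1240 in the Zbtb46+ CDPs and 1088 to 1096 in the Pre-CD8 DCs, and that of the erythroid list 1254 to 1778 and 1175 to 1377. Of 13 T, NK and innate lymphoid genes Cd226 rose and Cd69 fell, while Cd3d, Cd3g and Ncr1, defining genes of those cells, were under the background level in both populations. Cd79a and Pax5, defining genes of B cells, and Gata1, of red cell precursors, were under it as well.

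**Figure D5:**
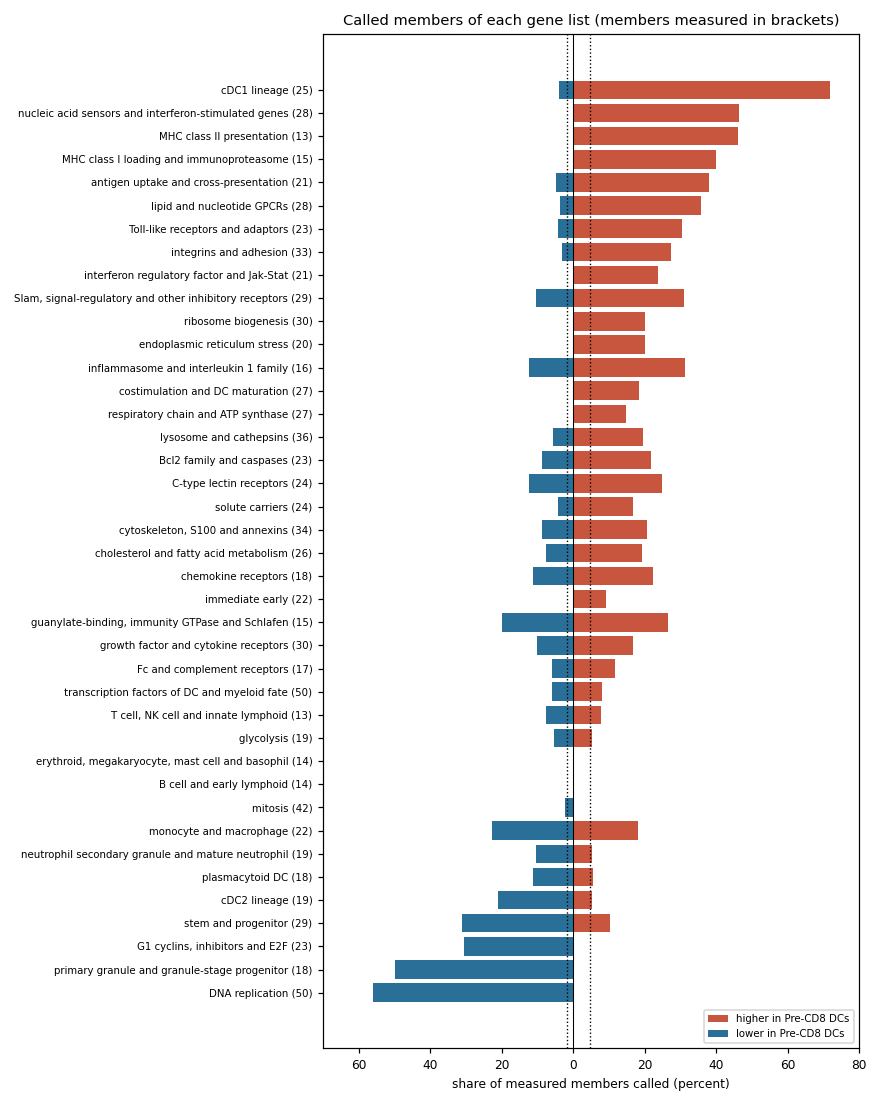
Share of the measured members of each of the 40 gene lists called higher (red, to the right) or lower (blue, to the left) in Pre-CD8 DCs, with the number measured in brackets; dotted lines mark the shares over all genes, 4.76% and 1.86%. The cDC1 lineage list reaches farthest right with 18 of 25 members and the DNA replication list farthest left with 28 of 50.

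Across all 40 lists, 898 distinct genes were measured, of which 162 were higher and 94 lower. The lists overlap and were chosen with earlier results of these data known, so their shares describe the chosen genes and are no sample of all genes.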

How the data were processed

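The 6 arrays compared, and 3 arrays of Zbtb46- CDPs, are whole-transcript mouse gene arrays (Affymetrix) hybridised with biotinylated cDNA. Per the submitters' processing notes, RMA in Affymetrix Expression Console, versions not given in the sources used here, made the deposited signal intensity, linear from 7.454 to 20455.6 with array medians of 110.2 to 118. Log2 was taken with no further scaling. Of 28853 probe sets, 21789 named 1 gene, 1621 several and 5443 none here; 999 genes had several one-symbol probe sets and 19938 genes were compared. Precision is limited by having 3 arrays in each group. No arrays held identical values.

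Group means were fitted to all 9 arrays with limma 3.58.1 (lmFit, eBayes) in R 4.3.3, with Benjamini-Hochberg adjustment over 19938 genes; intervals are 95%. Data for 9 arrays were simulated with independent noise and 1 SD per gene over all groups. In these data 35.8%, 86.6% and 98.5% of genes changed by 0.5, 1 and 2 were recovered, among 67, 67 and 66 such genes of 19938. Of the calls 6.96% were false. The simulation left out the wider spread of the Zbtb46+ CDPs and the array that stood apart, so its shares may not hold for the real data. Members and gene lists (40 lists, 975 of 1048 memberships measured) were chosen with earlier results of these data known. Genes were named by rule: the 25 largest rises and falls called with and without Zbtb46+ CDP replicate 1, up to 5 called members a list and direction, and fixed genes of interest; any other gene named was chosen after its values were seen. Promoter letters were searched in RefSeq windows (GRCm38.p6). Alternatives left out each array, added a replicate block, filtered dim genes, rescaled, or changed the moderation, probe set rule and threshold.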

Additional observations from a re-analysis of the deposited data

How the results depend on the processing

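Leaving out each array in turn gave 458 to 1804 genes higher and 196 to 868 lower, with the lowest counts without a Pre-CD8 DC array and the highest without Zbtb46+ CDP replicate 1. Without replicate 1 of both CDP groups 2496 were higher and 1570 lower, and with array weights 2021 and 1041. The 6 compared arrays alone gave 601 higher, quantile normalization 654 lower, an adjusted p under 0.01 gave 374 and 169, and a 2-fold minimum 176 and 67. Other settings stayed within 1.5 times of 949 and 370. The groups share replicate numbers. Same-numbered Zbtb46+ CDP and Pre-CD8 DC arrays correlated by 0.11, 0.07 and 0.17 in their deviations from the group means, and arrays of unequal number by -0.11 to 0.02. The main fit did not take the numbers to pair the groups compared. Between both CDP populations the correlations at equal number were 0.51, 0.42 and 0.36, and what these arrays share was not tested. With the replicate block 997 were higher and 446 lower. None of the 270 called genes that were followed changed sign under any setting, though only 264 of them were tested with the 30% dimmest genes dropped. The differences that did so were uncalled with all arrays: over the fits that leave out 1 array Bub1 ranged from -0.35 to 0.24, Fasn from -0.18 to 0.27 and Gpr183 from -0.24 to 0.30, the opposite sign coming without Zbtb46+ CDP replicate 1 (Bub1 was also -0.0004 without Pre-CD8 DC replicate 2), and without replicate 1 of both CDP groups Bub1 was -0.35, Fasn 0.27, Gpr183 0.30, Atf3 0.49, Dhcr7 0.26 and Lcn2 0.77. The cause was not tested.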
